A study of Mus musculus with 4 samples.

Results

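The RNA m6A machinery examined here comprised 9 genes taken by symbol from the gene tables of all 4 libraries: the demethylases Fto and Alkbh5, the writer subunits Mettl3, Mettl14 and Wtap, and the readers Ythdf1, Ythdf2, Ythdf3 and Ythdc1. Each symbol matched 1 of the 40091 genes in the files. The data were single-nucleus RNA-seq (snRNA-seq) libraries of thalamic tissue from wild-type C57BL6 mice aged 7 to 8 weeks. In the COL group (2 libraries), collagenase IV (Coll IV, 0.01 U in 10 nl saline), an enzyme that digests the vessel wall and so makes a haemorrhage, had been microinjected into the right VPM and VPL, the sensory relay nuclei of the thalamus, and in the NS group (2 libraries) saline had been microinjected. Tissue was taken 7 days after the injection, and each library pooled 3 mice, so that differences between single mice were not measured. P-values of COL against NS rest on 2 libraries per group, with the spread of each gene moderated by that of other genes. P-values between cell types rest on the spread of types within libraries. The question behind each comparison was which of these genes differed in level between the haemorrhagic and the saline-injected thalamus, and in which cell types.

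N6-methyladenosine (m6A) is a methyl mark on adenosines inside mRNA and other RNAs. It is written in the nucleus by a complex in which Mettl3 is the catalytic subunit, Mettl14 holds the RNA substrate and Wtap recruits the complex to nuclear speckles, and it can be removed by the oxygenases Alkbh5 and Fto, the latter of which also acts on the related cap mark m6Am. Readers with a YTH domain bind the mark: Ythdc1 inside the nucleus, where it acts in splicing and export, and Ythdf1, Ythdf2 and Ythdf3 in the cytoplasm, where Ythdf2 is best known for hastening mRNA decay. Fto is abundant in the brain and is widely known from the obesity-associated variants in the introns of its human counterpart.

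The libraries held 68746459 to 77557870 UMIs over 5943 to 10438 barcodes, and 32291 nuclei were kept, 9673 and 10422 in NS replicates 1 and 2 and 5931 and 6265 in COL replicates 1 and 2. Between 0.522% and 0.766% of the barcodes of a library also occurred in another library. Nuclei were clustered and clusters named from marker genes, and the 5 types with enough nuclei in every library were compared: neurons, oligodendrocytes, astrocytes, microglia and oligodendrocyte precursor cells (OPCs). The thalamic label was checked in the neurons, in which 51.2% to 61.1% of nuclei per library had a UMI of Slc17a6, the glutamate transporter gene of thalamic relay neurons, against 0.181% to 0.978% for the cortical gene Neurod6. The shares were 1.90% to 5.38% and 8.11% to 14.1% for the dopamine receptor genes Drd1 and Drd2 of the striatum. The share of neurons with a UMI of each of 5 thalamic genes was higher in both COL libraries than in both NS libraries, at a greater depth per nucleus in COL. Tcf7l2 was at 44.0% and 56.8% in NS and 79.2% and 62.3% in COL, and Prkcd at 12.1% and 20.5% in NS and 45.4% and 24.4% in COL. The part of the make-up of the neurons in their COL and NS differences was not tested. The median nucleus of each type was deeper in both COL libraries than in both NS libraries (microglia 2230 and 1995 UMIs in NS, 4052 and 4316 in COL). Within a named type, different clusters held most of the NS and of the COL nuclei. The main oligodendrocyte cluster of the NS libraries held 1615 and 2442 of their nuclei and only 3 nuclei of each COL library.

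Fto stood higher in both COL libraries than in both NS libraries in all 5 cell types, and the difference passed the test (adjusted p below 0.05) in microglia and in OPCs. Levels are given as CPM, the gene's UMIs per 1000000 UMIs summed over all nuclei of that type in that library. In microglia, the resident immune cells of the brain, Fto stood at 292 and 272 CPM in NS replicates 1 and 2 and at 425 and 403 CPM in COL replicates 1 and 2, from 217, 195, 729 and 1095 UMIs. Both COL libraries lay above both NS libraries. The means were 282 ± 14.6 CPM in NS and 414 ± 15 CPM in COL (SD, n = 2 each), and the log2 fold change was 0.59 ± 0.14 (SE, 95% confidence interval 0.28 to 0.91, adjusted p = 0.00921 over all genes tested, edgeR quasi-likelihood test). In OPCs, the dividing cells that give rise to oligodendrocytes, Fto was at 301 and 264 CPM in NS and at 387 and 379 CPM in COL, again without overlap. Here the log2 fold change was 0.47 ± 0.14 (interval 0.17 to 0.77, adjusted p = 0.0312, edgeR). Without NS replicate 1 or NS replicate 2 the adjusted p was 0.0896 or 0.111 in microglia, where the log2 fold change was 0.63 or 0.60, and 0.245 or 0.345 in OPCs, where it was 0.56 or 0.45, so that the calls were lost and the size was nearly kept. DESeq2 gave 0.0284 and 0.0731. With a trend over gene span removed (below), the log2 fold change was -0.094 in microglia and 0.20 in OPCs, and neither was called (edgeR).

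In the other 3 types Fto was also without overlap between groups, but the difference did not pass. The share of all genes without overlap was not counted. Lack of overlap, for Fto and for the genes below, therefore describes the values and does not set a gene apart from the rest. Neurons had 277 and 239 CPM in NS and 361 and 327 CPM in COL (log2 fold change 0.57, interval 0.17 to 0.97, adjusted p = 0.108, edgeR). Glutamatergic neurons (271 and 225 CPM in NS, 348 and 328 CPM in COL) and GABAergic neurons (282 and 250 CPM in NS, 376 and 325 CPM in COL) were alike in this. Oligodendrocytes, the myelin-forming cells, had 335 and 321 CPM in NS and 465 and 411 CPM in COL (log2 fold change 0.46, interval 0.13 to 0.80, adjusted p = 0.0518, edgeR). Astrocytes showed the smallest difference, with 310 and 252 CPM in NS and 378 and 319 CPM in COL (log2 fold change 0.31, interval -0.04 to 0.67, adjusted p = 0.204, edgeR). Over all nuclei together Fto was at 287 and 259 CPM in NS and 370 and 345 CPM in COL (log2 fold change 0.55, adjusted p = 0.0953, edgeR). Without COL replicate 2 Fto passed in neurons (0.67), in oligodendrocytes (0.59) and over all nuclei (0.62). In each of these, that fit also called more of all genes than the fit with all 4 libraries. DESeq2 gave an adjusted p of 0.0455 in neurons and 0.0462 over all nuclei. The same 4 libraries stand behind every type, so the types are not separate evidence.

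**Figure D1:**
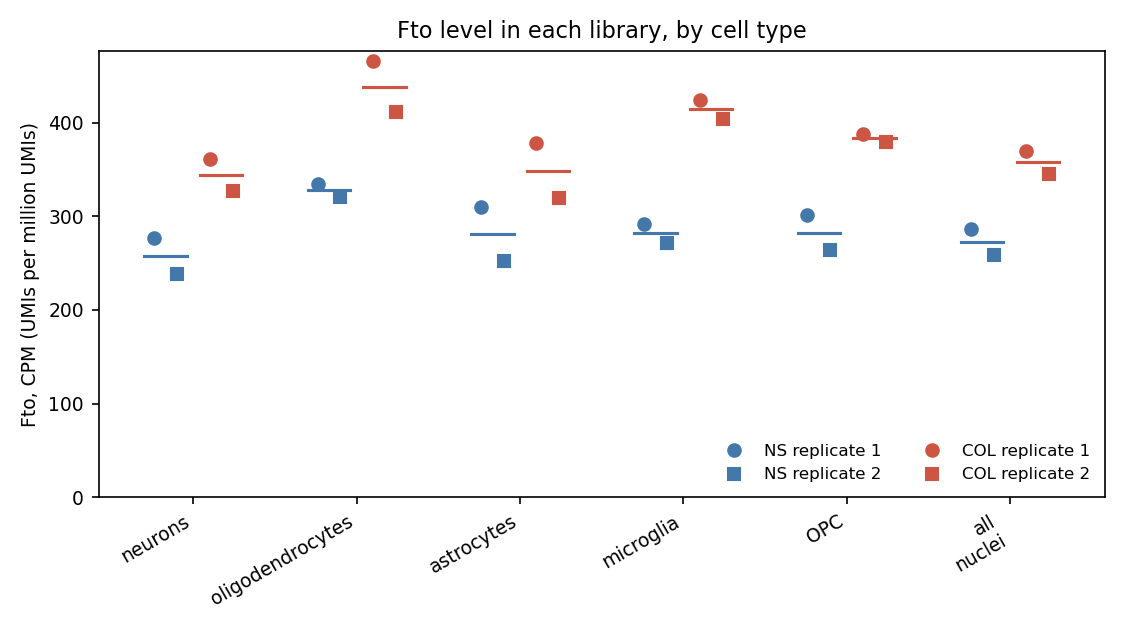
Fto level in CPM (vertical axis) in each of the 5 cell types and over all nuclei together (horizontal axis), with 1 point per library and a bar at the mean of the 2 libraries of each group. In every type both COL points lie above both NS points, with the highest COL values in oligodendrocytes (465 and 411 CPM) and microglia (425 and 403 CPM).

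Whether the COL and NS difference of Fto itself depended on the cell type was tested by an interaction between type and group. The change in microglia exceeded the mean change in the other 4 types by 0.28 on the log2 scale (adjusted p = 0.210, edgeR), and the change in astrocytes was below it (-0.33, adjusted p = 0.110, edgeR). Neither passed, so the calls in microglia and OPCs do not show that Fto differed more there than elsewhere.

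Macrophages, which are blood-borne cells or residents of the brain's borders, were almost confined to the COL libraries, with 319 and 473 nuclei there and 3 and 5 in NS. Their Fto level was 329 and 325 CPM in COL, below that of the COL microglia. T and NK cells had 216 and 308 CPM in COL. Macrophage genes also moved with the microglial comparison: the 8 macrophage markers summed to 8.08 and 66.8 CPM in NS microglia, where 4 and 2 of the 8 were at 0, and to 204 and 297 CPM in COL microglia, where none was at 0. The 8 microglial markers summed to 7313 and 6992 CPM in NS and 4889 and 4909 CPM in COL. A cluster led by the division genes Top2a and Mki67 was named microglia, with a score lead of 0.3 over macrophages. It held 1 and 3 of the 321 and 344 NS microglia and 73 and 120 of the 371 and 544 COL microglia. The part of these dividing nuclei in the Fto difference was not tested. Depth moved with the comparison as well. After thinning every nucleus to at most 2000 UMIs the log2 fold change of Fto was 0.56 in microglia (adjusted p = 0.0189, edgeR) and 0.48 in OPCs (adjusted p = 0.0407, edgeR). Thinning draws UMIs at random and keeps the expected share of each gene within a nucleus, so it does not test the part of depth. In OPCs, the macrophage markers summed to 2.74 and 5.82 CPM in NS and 71.0 and 51.3 CPM in COL, and the 8 oligodendrocyte markers to 2923 and 3161 CPM in NS and 1596 and 2372 CPM in COL. The part of these markers in the Fto difference was not tested.

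Gene length moved with the result as well. Fto spans 354.92 kb (chr8:91313525-91668439 on the plus strand, GRCm38), while the other 8 genes span 10.29 to 33.83 kb. Among the 906 genes over 200 kb tested in microglia, the median log2 fold change was 0.77 and 56.6% were called higher in COL, and 60.3% of them had a larger change than Fto. Among genes under 50 kb the median was -0.20. The same gradient was present in OPCs (median 0.26 over 200 kb and -0.16 under 50 kb), oligodendrocytes (0.61 and -0.19), astrocytes (0.43 and -0.15) and neurons (0.30 and -0.11). Against genes over 200 kb Fto stood higher in neurons and OPCs, where 15.4% and 29.1% of those genes had a larger change, than in oligodendrocytes (59.4%) and astrocytes (60.1%).

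When a smooth trend of level over gene span was removed from each library, an alternative chosen after seeing the data, the log2 fold change of Fto became -0.094 in microglia (adjusted p = 0.654, edgeR), 0.20 in OPCs (adjusted p = 0.261), -0.17 in oligodendrocytes (adjusted p = 0.283), -0.16 in astrocytes (adjusted p = 0.450) and 0.28 in neurons (adjusted p = 0.214). No call remained. Long genes are mostly intron, and whether the authors' counting took in reads from introns is not given in the sources used here. Fto also overlaps other annotated genes on both strands, such as Gm45292 on the same strand and Gm3235 on the opposite strand. The part of gene span in the Fto difference was not tested beyond these values, and that of depth per nucleus was not tested.

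**Figure D2:**
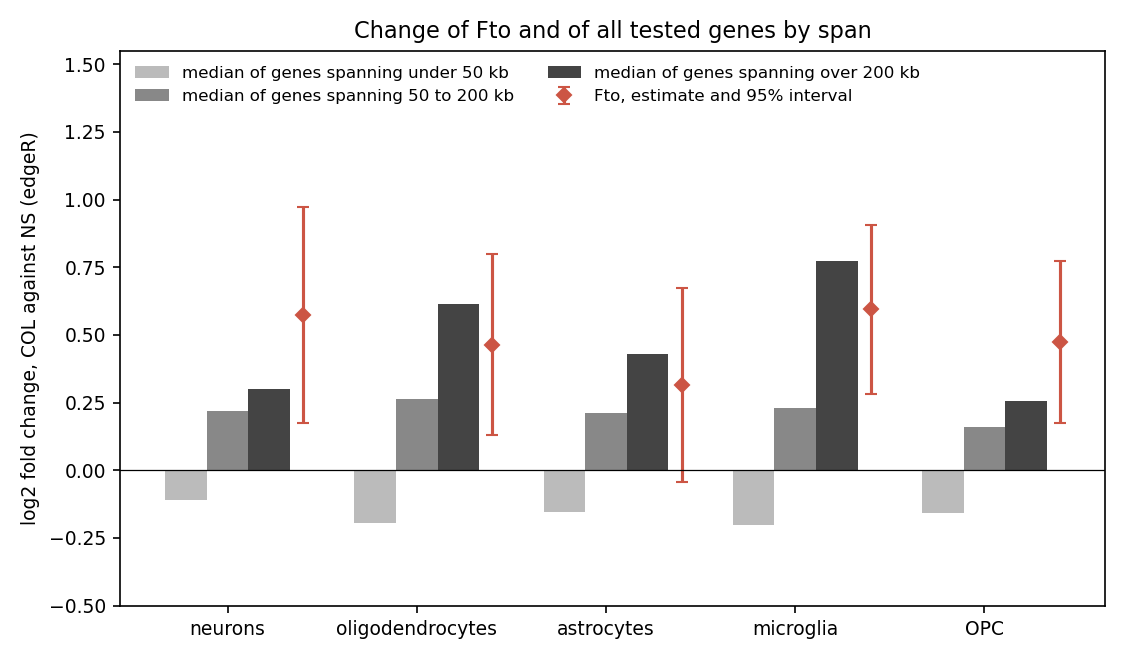
Median log2 fold change of COL against NS (vertical axis) of genes grouped by genomic span (under 50 kb, 50 to 200 kb and over 200 kb), with the value of Fto and its 95% confidence interval beside them, for each of the 5 cell types. Genes over 200 kb have positive medians in every type, from 0.26 in OPCs to 0.77 in microglia, and Fto lies below that median in oligodendrocytes, astrocytes and microglia and above it in neurons and OPCs.

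Fto begins 262 bases from the start of Rpgrip1l, a gene of the ciliary transition zone that runs the other way, so that the sequence below lies wholly between the start sites of both and shares 198 bases with the window taken upstream of Rpgrip1l. It is shown because edgeR called both genes higher in COL microglia and OPCs, though in astrocytes the groups overlapped for Rpgrip1l and not for Fto. Shown are 250 bases upstream of Fto, chr8:91313275-91313524, plus strand, 5′ to 3′, from RefSeq's promoter table for GRCm38.p6, with CpG pairs in capitals.
Fto promoter: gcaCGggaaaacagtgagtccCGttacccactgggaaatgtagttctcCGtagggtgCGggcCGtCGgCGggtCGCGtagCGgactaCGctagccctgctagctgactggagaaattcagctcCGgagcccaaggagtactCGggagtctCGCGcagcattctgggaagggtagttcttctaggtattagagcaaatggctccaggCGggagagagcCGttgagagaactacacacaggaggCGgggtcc
The window holds 18 CpG pairs at 59.2% GC, and 21.7% of the 32851 mouse promoter windows of that length had at least as many, where the median was 6. Neither the GC box GGGCGG nor CCAAT nor TATAAA matched on either strand, and these letters occurred in 32.7%, 33.9% and 12.4% of the windows. Rpgrip1l (96.23 kb) stood at 18.9 and 22.3 CPM in NS microglia and 44.8 and 33.9 CPM in COL microglia, and at 15.5 and 16.0 CPM in NS OPCs and 27.2 and 34.6 CPM in COL OPCs. It was higher in COL in both (log2 fold change 0.96, adjusted p = 0.0427, and 1.01, adjusted p = 0.0177, edgeR), and the span-adjusted values were 0.71 (adjusted p = 0.129) and 0.85 (adjusted p = 0.0462). It passed in 4 of 13 alternatives in microglia and 9 of 13 in OPCs, and DESeq2 (adjusted p = 0.217 and 0.137) and thinning (adjusted p = 0.150 and 0.147) ended the call in both. In microglia plain UMI totals (adjusted p = 0.0531), doublet removal (adjusted p = 0.0521) and marker assignment (adjusted p = 0.124) ended it as well. Its call was lost without NS replicate 1 (0.83 in microglia and 0.97 in OPCs), without NS replicate 2 (1.15 and 1.10) and, in microglia, without COL replicate 1 (0.76). In astrocytes it was at 36.4 and 30.2 CPM in NS and 38.2 and 30.4 CPM in COL, and there the groups overlapped. None of the next genes along the chromosome, Rbl2, Aktip, Irx3 and Irx5, passed in any of the 5 types (edgeR).

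Alkbh5, the other demethylase, passed the test in no type. Its level in neurons was 20.3 and 17.5 CPM in NS and 14.8 and 17.7 CPM in COL, and in microglia 26.9 and 39.0 CPM in NS and 38.4 and 29.5 CPM in COL, with overlapping groups in both. Both COL oligodendrocyte values (30.0 and 26.2 CPM) lay below both NS values (37.7 and 30.7 CPM), though COL replicate 1 and NS replicate 2 were nearly equal. In OPCs both COL values (23.7 and 23.9 CPM) lay above both NS values (22.8 and 18.4 CPM), as for Fto, and in astrocytes the groups overlapped (26.2 and 22.8 CPM in NS, 25.9 and 35.9 CPM in COL).

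None of the writer subunits passed either. Mettl3 in neurons was at 15 and 16.5 CPM in COL against 22.7 and 21.2 CPM in NS, and the groups did not overlap (log2 fold change -0.33, interval -0.68 to 0.02, adjusted p = 0.187, edgeR). In OPCs it was at 23.7 and 25.2 CPM in NS and 19.5 and 19.0 CPM in COL. In neither type did this pass, and the Mettl3 gene overlaps Tox4 on the opposite strand, so reads of the pair could be confused if strand was not used in counting. Mettl14 was the least counted gene, with 13 and 14 UMIs in NS microglia and 16 and 32 in COL microglia, which gave 17.5 and 19.5 CPM against 9.32 and 11.8 CPM. Wtap in microglia was at 83.5 and 86.3 CPM in NS and 69.3 and 67.8 CPM in COL, both COL values below both NS values. In neurons its groups overlapped (29.8 and 23.7 CPM against 20.6 and 27.5 CPM).

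None of the readers passed in any type with all 4 libraries. Ythdf2 in oligodendrocytes was at 30.0 and 25.0 CPM in NS and 41.4 and 33.2 CPM in COL (log2 fold change 0.49, adjusted p = 0.107, edgeR). In OPCs it was at 35.1 and 26.2 CPM in NS and 42 and 44.1 CPM in COL (log2 fold change 0.52, adjusted p = 0.115, edgeR). In astrocytes it was at 30.2 and 27.6 CPM in NS and 38.9 and 37.3 CPM in COL. In these 3 types the groups were apart, but not past the threshold, and in microglia (101 and 83.6 CPM in NS, 98.4 and 76.6 CPM in COL) and neurons (24.9 and 21.5 CPM in NS, 22.9 and 23.5 CPM in COL) they overlapped. Ythdf3 in astrocytes was at 100 and 78.2 CPM in NS and 141 and 105 CPM in COL (log2 fold change 0.46, adjusted p = 0.129, edgeR), and in microglia both COL values (161 and 139 CPM) lay below both NS values (182 and 164 CPM). In oligodendrocytes Ythdf3 was at 101 and 81.6 CPM in NS and 122 and 104 CPM in COL, without overlap (log2 fold change 0.36, adjusted p = 0.142, edgeR). Without COL replicate 2, Ythdf2 in oligodendrocytes (0.68), Ythdf3 in oligodendrocytes (0.50) and Ythdf3 in astrocytes (0.66) passed. Leaving out each library in turn gave 0.30 to 0.68, 0.22 to 0.50 and 0.23 to 0.66. In oligodendrocytes the fit without COL replicate 2 also called more of all genes than the fit with all 4 libraries. Ythdc1, the nuclear reader, was lower in both COL libraries in oligodendrocytes (90.9 and 82.8 CPM in NS, 70.1 and 72.1 CPM in COL) and in microglia (109 and 100 CPM in NS, 95.5 and 90.6 CPM in COL), without passing. Ythdf1 overlapped between groups in neurons, oligodendrocytes, astrocytes and microglia, and in OPCs its COL values (21.9 and 25.8 CPM) lay just above its NS values (18.7 and 20.9 CPM).

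Counted over the list, all 9 genes were tested in every type, and the number called was 1 in microglia (Fto, higher), against 28.3% of all 11948 genes tested there and 14% called higher, and 1 in OPCs (Fto, higher), against 18.7% of 13388 and 8.24% higher. It was 0 in oligodendrocytes, where 23.2% of 16588 genes were called, 0 in astrocytes, where 17.5% of 14776 were called, 0 in neurons, where 0% of 23304 were called, and 0 over all nuclei, where 9.45% of 25570 were called (edgeR). At an unadjusted p under 0.05 the counts were 2 in oligodendrocytes, 1 in astrocytes, 1 in neurons and 2 over all nuclei, against 39.2%, 32.8%, 28.7% and 33.6% of all genes. DESeq2 called 1 of the 9 genes in neurons and 1 over all nuclei, Fto in both, against 12% and 19.2% of all genes, and none in oligodendrocytes or astrocytes, against 17.8% and 9.83%. The median log2 fold change of the 9 genes beside that of all genes tested was 0.03 and 0.01 in neurons, -0.05 and -0.02 in oligodendrocytes, 0.16 and -0.01 in astrocytes, -0.14 and -0.00 in microglia, and 0.14 and -0.01 in OPCs. Scaling by plain UMI totals moved the median of all genes in neurons to -0.14 and that of the 9 genes to -0.12. In simulated counts with changes of 2-fold, this design recovered 38.7% of changed genes in neurons and 41.1% in microglia. For 1.5-fold changes it recovered 4.29% and 7.02%. The simulated counts held far fewer changed genes than were called in microglia, and their spread came from a trend over level. In the real neurons edgeR called no gene, so these shares do not give the power of the real tests. A gene that was not called is not thereby shown to be unchanged.

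**Figure D3:**
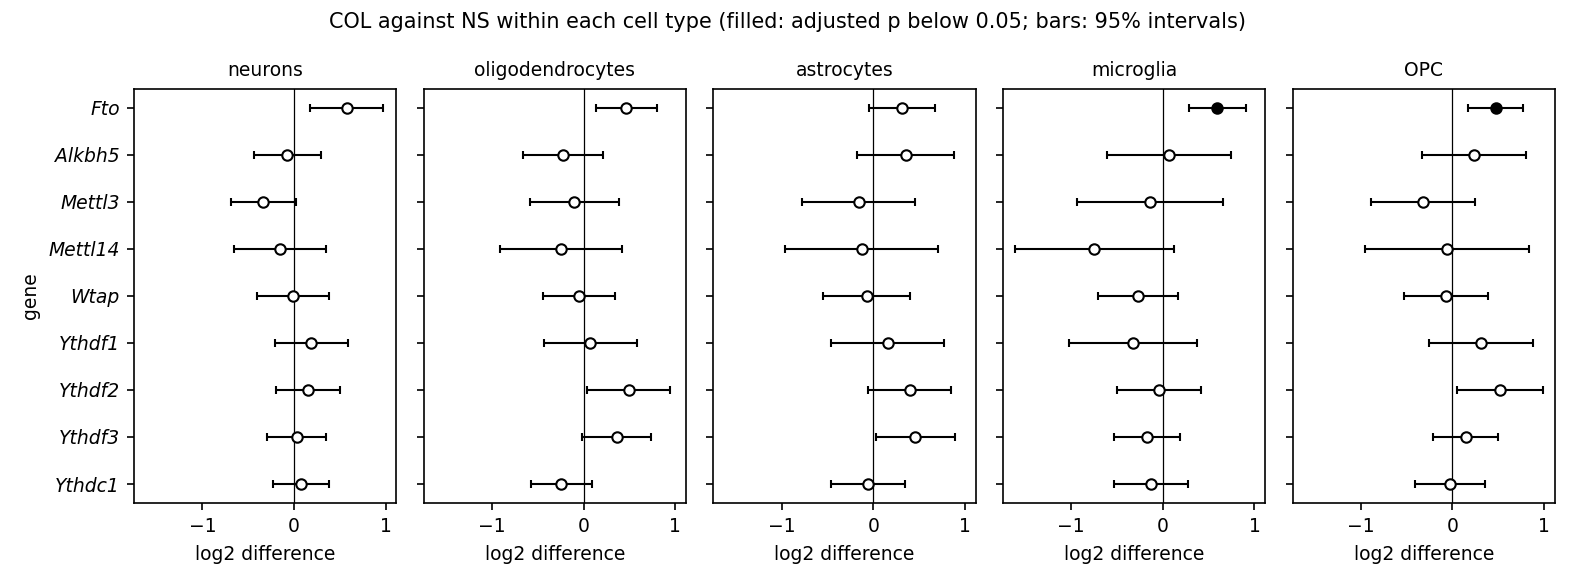
Log2 fold change of COL against NS (horizontal axis) with its 95% confidence interval for each of the 9 genes in each of the 5 cell types, with filled points for an adjusted p below 0.05. Fto in microglia (0.59) and in OPCs (0.47) are the only filled points, and most other intervals include 0.

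Levels also differed between the cell types. Each type was compared with the mean of the other 4 in a model with the library as a block. Ythdf2, the decay-promoting reader, was the most uneven of the 9 genes: its mean over the 4 libraries was 89.9 ± 11.7 CPM in microglia, 36.8 ± 8.06 in OPCs, 33.5 ± 5.46 in astrocytes, 32.4 ± 6.86 in oligodendrocytes and 23.2 ± 1.41 in neurons (SD, n = 4). Its microglial level was 1.21 above the mean of the other types on the log2 scale (adjusted p = 7.7e-12, edgeR), and its neuronal level was 0.76 below (log2 difference -0.76, adjusted p = 6.93e-11). Microglia were also higher in Wtap (0.86, adjusted p = 2.1e-08), Ythdf3 (0.44, adjusted p = 4.88e-06) and Ythdc1 (0.28, adjusted p = 0.0048), which made 4 of 9 genes higher, against 25.2% of the 18257 genes tested. Fto alone was lower in microglia (-0.27, adjusted p = 0.000777, against 31.5% of genes lower), and this direction turned to 0.059 (adjusted p = 0.430) with plain UMI totals.

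Neurons were lower in 7 of the 9 genes, against 32.8% of all genes: Ythdf2, Wtap (-0.66), Alkbh5 (-0.55), Ythdf3 (-0.38), Ythdc1 (-0.37), Ythdf1 (-0.37) and Mettl14 (-0.32, adjusted p = 0.0181, the weakest of the 7). With plain UMI totals it was 8 of 9, against 39.2%. Fto (-0.05) and Mettl3 (-0.03) did not pass. Oligodendrocytes were higher in 6 of 9 genes, against 28.6%: Alkbh5 (0.54, adjusted p = 6.62e-06), Fto (0.45, adjusted p = 5.07e-08), Ythdc1 (0.41, adjusted p = 2.07e-06), Mettl14 (0.31, adjusted p = 0.0441), Wtap (0.23, adjusted p = 0.00926) and Ythdf3 (0.14, adjusted p = 0.035). With plain UMI totals, which moved the median of all genes in oligodendrocytes from -0.04 to -0.24, Alkbh5 (0.34), Fto (0.24) and Ythdc1 (0.20) were still called higher, Wtap (0.02) and Mettl14 (0.11) were not, Ythdf3 turned to -0.064, and Ythdf2 (-0.32) was called lower. In microglia the same scaling moved the median of all genes from -0.13 to 0.20, and 7 of the 9 genes were then called higher, against 38% of all genes. Astrocytes were lower in Ythdf2 (-0.29), Wtap (-0.25) and Fto (-0.15), against 23.9%, and OPCs in Ythdc1 (-0.24), against 19.4% (edgeR). Several of the smaller differences no longer passed with 1 library fewer in the fit. Fto and Wtap in astrocytes passed in no fit that left out 1 library (Fto -0.12 to -0.17, Wtap -0.19 to -0.30). Ythdf2 in astrocytes and Ythdc1 in OPCs were lost without NS replicate 1 (-0.22 and -0.21) or COL replicate 1 (-0.25 and -0.19), and Mettl14 in neurons without NS replicate 2 (-0.31) or COL replicate 2 (-0.17). Mettl14 in oligodendrocytes was lost without NS replicate 1 (0.24), COL replicate 1 (0.33) or COL replicate 2 (0.41). Ythdf3 in oligodendrocytes was lost without NS replicate 1 (0.16) or COL replicate 2 (0.16), and Ythdc1 in microglia without NS replicate 1 (0.22). Whether a COL and NS difference varied with type was tested for all 9 genes, and none passed in any of the 5 types (edgeR), where 9.27%, 6.07%, 5.63%, 8.92% and 3.34% of all genes were called in neurons, oligodendrocytes, astrocytes, microglia and OPCs. At an unadjusted p under 0.05 there were 2, 2, 1, 1 and 0 of the 9 in that order, against 22.1%, 18.1%, 17.5%, 20.6% and 13.8% of all genes.

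**Figure D4:**
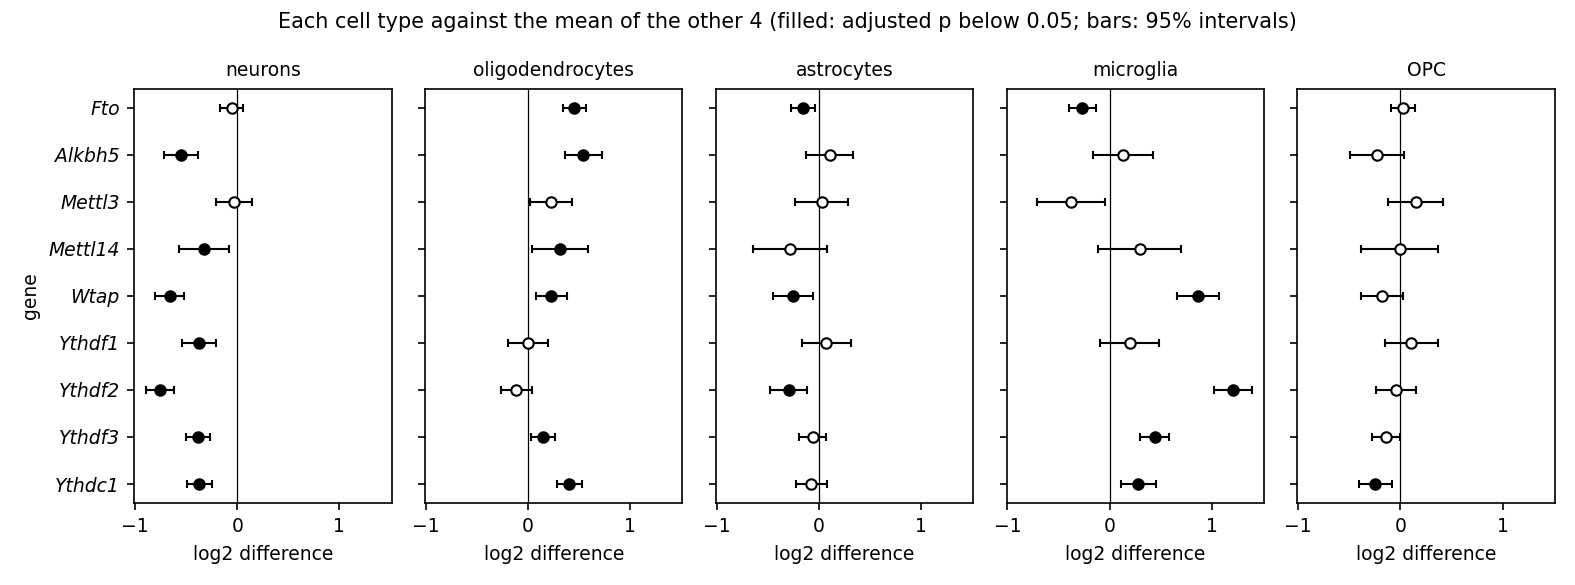
Log2 difference of each cell type from the mean of the other 4 (horizontal axis) with its 95% confidence interval for each of the 9 genes (vertical axis), 1 panel per type, with filled points for an adjusted p below 0.05. Neurons have 7 filled points, all below 0, and microglia have the 2 largest differences, Ythdf2 (1.21) and Wtap (0.86).

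Ranked by mean CPM over the 4 libraries, Fto ran from oligodendrocytes (383 ± 67.6) through microglia (348 ± 77.2), OPCs (333 ± 60.2) and astrocytes (315 ± 51.6) to neurons (301 ± 53.8). These SDs take in both groups, so they hold the COL and NS difference. Within each library oligodendrocytes stood above microglia, while the other neighbouring pairs changed places between libraries. The order of the means is on plain CPM. With the TMM scaling of the tests microglia were the lowest type (log2 difference -0.27 from the mean of the others, against -0.15 in astrocytes, -0.05 in neurons, 0.03 in OPCs and 0.45 in oligodendrocytes). Between genes, the order depended on the scale. In CPM, microglial Fto (348) was above Ythdf3 (161). Per kilobase of exon Fto was the highest of the 9 in neurons, at 23.1 CPM per kb, and Mettl14 the lowest, at 1.04, whereas in microglia Ythdf3 (30.1 CPM per kb) was above Fto (26.7). Per kilobase of genomic span Fto (0.848 CPM per kb in neurons and 0.980 in microglia) was below 5 of the other genes in neurons and below 7 in microglia, and Ythdf3 led, at 2.32 CPM per kb in neurons and 4.77 in microglia. Mettl14 was again lowest, at 0.434 in neurons and 0.816 in microglia. Libraries made from the 3′ end need not count in proportion to either length, and whether intron reads were counted is not given, so no order between the genes is drawn.

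Over the 20 sums of 5 types and 4 libraries, the genes whose log2 CPM followed Fto most closely among 18257 were Prrc2c (Pearson r = 0.952), Dicer1 (0.949), Trpm7 (0.919), Gigyf2 (0.916) and Chuk (0.915). These points share libraries and depth, and r is given as a description. Within the list the highest values were those of Alkbh5 (0.352) and Ythdf3 (0.285), at ranks 3958 and 4923 among the 18257 genes. Rpgrip1l, at 0.507, had rank 2116, so none of these 3 was among the genes most like Fto.

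Of 20 other genes of m6A and m6Am (cofactors of the writer complex, further methyltransferases and further readers), 18 or 19 were tested in each type. Higher and lower calls numbered 1 and 2 in oligodendrocytes, 2 and 2 in astrocytes, 1 and 1 in microglia, 2 and 2 in OPCs, and 0 and 0 in neurons (edgeR), where 23.2%, 17.5%, 28.3%, 18.7% and 0% of all genes were called. At an unadjusted p under 0.05 (edgeR) there were 9 of 19 in neurons, 5 of 19 in oligodendrocytes and 5 of 19 in astrocytes, against 28.7%, 39.2% and 32.8% of all genes. The count was 3 of 18 in microglia and 8 of 19 in OPCs, against 4696 of 11948 and 4303 of 13388 genes. In neurons DESeq2 called 1 higher and 2 lower. The median log2 fold change of these genes was 0.01, 0.08, 0.21, 0.09 and 0.04 in oligodendrocytes, astrocytes, microglia, OPCs and neurons. The reader Igf2bp2, an mRNA-stabilising protein, was higher in COL in all 4 glial types. In astrocytes it was at 9.78 and 4.77 CPM in NS and 53.9 and 31.8 CPM in COL (log2 fold change 2.51, adjusted p = 0.00302, edgeR), with no overlap, and in oligodendrocytes at 1.88 and 1.78 CPM in NS and 8.89 and 8.38 CPM in COL (2.27, adjusted p = 0.00615). Markers of other types moved with it, and their part was not tested. The 8 OPC markers summed to 140 and 136 CPM in NS and 261 and 277 CPM in COL astrocytes, and to 150 and 133 CPM in NS and 301 and 334 CPM in COL oligodendrocytes. The 8 macrophage markers summed to 8.95 and 13.8 CPM in NS and 55.2 and 66.7 CPM in COL astrocytes, and to 2.44 and 4.93 CPM in NS and 24.9 and 50.1 CPM in COL oligodendrocytes. Igf2bp2 was also called in microglia (1.41, adjusted p = 0.0253, from 9, 6, 56 and 59 UMIs) and OPCs (1.32, adjusted p = 0.0209). Igf2bp2 spans 104.29 kb, and with the span trend removed its log2 fold change was 2.26 in astrocytes (adjusted p = 0.00448), 1.98 in oligodendrocytes (adjusted p = 0.00968) and 1.14 in microglia (adjusted p = 0.0679). When nuclei were assigned by their own marker UMIs in place of clusters, it was 1.08 in astrocytes (adjusted p = 0.155), 0.91 in microglia (adjusted p = 0.115) 1.07 in OPCs (adjusted p = 0.135) and 1.07 in oligodendrocytes, where it still passed. With a cluster put back that had been left out of the oligodendrocytes, scored highest for their markers and held 501 and 1070 NS nuclei and 0 and 2 COL nuclei, the oligodendrocyte value was 0.99 (adjusted p = 0.0527). DESeq2 gave an adjusted p of 0.139 in microglia and 0.144 in OPCs. Leaving out NS replicate 2 ended the call in astrocytes (2.12, adjusted p = 0.133), microglia (1.24, adjusted p = 0.0842) and OPCs (1.08, adjusted p = 0.172), leaving out NS replicate 1 ended it in microglia (1.70) and OPCs (1.70), and leaving out COL replicate 1 ended it in microglia (1.12).

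Its relative Igf2bp3 went the other way in every type but microglia. It was at 37.9 and 45.9 CPM in NS astrocytes and 12.3 and 19.8 CPM in COL astrocytes (log2 fold change -1.34, adjusted p = 0.0114, edgeR), and it was also lower in COL oligodendrocytes (-1.57, adjusted p = 0.0145) and OPCs (-1.82, adjusted p = 0.0051). Without NS replicate 2 the call was lost in astrocytes (-1.19, adjusted p = 0.182) and OPCs (-1.25, adjusted p = 0.0633), and with thinning it was lost in astrocytes (-0.83, adjusted p = 0.129). Neurons held the most Igf2bp3, at 77.1 and 104 CPM in NS and 20.2 and 48.4 CPM in COL, without overlap. That difference was not called by edgeR (-1.29, adjusted p = 0.108), and it was called by DESeq2 (adjusted p = 0.0103), with the replicate block (adjusted p = 0.0353) and in 4 of 16 alternatives in all. Igf2bp2 in neurons was likewise not called by edgeR (3.12, adjusted p = 0.0968) but was by DESeq2 (adjusted p = 1.67e-10), with the replicate block (adjusted p = 0.0316) and in 5 of 16 alternatives in all. In microglia Igf2bp3 was at 18.9 and 27.9 CPM in NS and 29.7 and 33.9 CPM in COL, with both COL values above both NS values, and was not called (edgeR). Trmt112, a 1.35 kb gene for the partner subunit of several methyltransferases, was lower in COL microglia (36.4 and 29.2 CPM in NS, 5.24 and 5.53 CPM in COL, log2 fold change -2.54, adjusted p = 0.000676), oligodendrocytes (-2.01, adjusted p = 0.0111) and OPCs (-1.80, adjusted p = 0.0277). With the span trend removed these were -1.67 (adjusted p = 0.0101), -1.68 (adjusted p = 0.0164) and -1.38 (adjusted p = 0.0861), and DESeq2 gave an adjusted p of 0.173 in OPCs. Trmt112 overlaps Prdx5 and Esrra on the opposite strand, and Igf2bp3 overlaps Malsu1 on the opposite strand. Single calls were Zcchc4 (0.89, adjusted p = 0.0208) and Hnrnpa2b1 (-0.68, adjusted p = 0.022) in astrocytes and Prrc2a (0.62, adjusted p = 0.0451) in OPCs. These 3, and Trmt112 in OPCs, each lost the call without NS replicate 1, NS replicate 2 or COL replicate 1, with log2 fold changes of 0.78, 0.94 and 0.84 for Zcchc4, -0.80, -0.61 and -0.54 for Hnrnpa2b1, 0.60, 0.70 and 0.59 for Prrc2a, and -2.03, -1.54 and -1.32 for Trmt112, which was -3.03 without COL replicate 2. Thinning took Prrc2a to 0.23 (adjusted p = 0.727), and it also lost the call with DESeq2 (adjusted p = 0.283), plain UMI totals (adjusted p = 0.0659), doublet removal (adjusted p = 0.0805) and marker assignment (adjusted p = 0.100), passing in 5 of 13 alternatives. Hnrnpa2b1 was -0.36 with the span trend removed (adjusted p = 0.102), and Zcchc4 lost the call with DESeq2 (adjusted p = 0.0917) and thinning (adjusted p = 0.0810). Virma, a writer-complex scaffold, and Ythdc2, the YTH reader with a helicase domain, passed in no type: Virma was at 74.1 and 94.7 CPM in NS microglia and 104 and 102 CPM in COL microglia, and Ythdc2 at 57.0 and 57.9 CPM in NS neurons and 65.7 and 68.3 CPM in COL neurons.

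**Figure D5:**
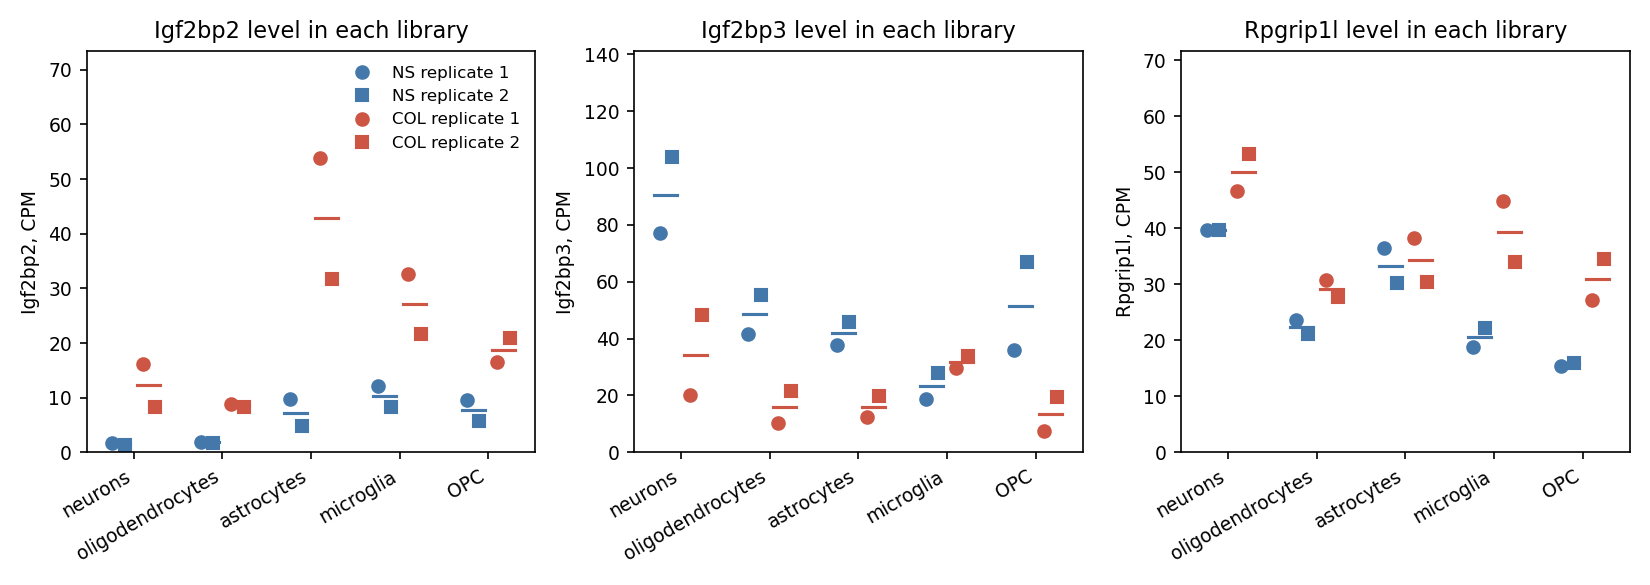
Level in CPM (vertical axis) of Igf2bp2, Igf2bp3 and Rpgrip1l in each of the 5 cell types, with 1 point per library. Both COL points of Igf2bp2 lie above both NS points in every type, whereas those of Igf2bp3 lie below in all types but microglia.

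Tlr4 is an innate immune receptor that the study's introduction ties to Fto. That tie is a stabilising of TLR mRNA by Fto in neurons, with more TLR4 protein. Neuronal values are given below, and protein was not measured here. In microglia Tlr4 was at 74.1 and 76.6 CPM in NS and 99.0 and 63.4 CPM in COL, with overlapping groups (log2 fold change 0.13, adjusted p = 0.739, edgeR). Over all nuclei it was higher in COL, at 6.92 and 8.32 CPM against 1.65 and 1.82 CPM (log2 fold change 2.28, adjusted p = 0.00562). Microglia were 3.32% and 3.30% of the nuclei in NS and 6.26% and 8.68% in COL, and the COL macrophages, 5.38% and 7.55% of the nuclei against 0.0310% and 0.0480% in NS, had 121 and 96.6 CPM of Tlr4. In oligodendrocytes Tlr4 was at 0.563 and 0.547 CPM in NS and 2.22 and 2.96 CPM in COL, and it was called higher (2.23, adjusted p = 0.0218, edgeR). The macrophage markers given above for oligodendrocytes and astrocytes moved with Tlr4 there, as they did in neurons (7.46 and 8.38 CPM in NS, 15.9 and 32.2 CPM in COL), and their part was not tested. That call was lost with DESeq2 (adjusted p = 0.0872) and without NS replicate 1 (2.22, adjusted p = 0.0869) or NS replicate 2 (2.29, adjusted p = 0.114). Both COL values also lay above both NS values in astrocytes (3.12 and 3.71 CPM in NS, 8.18 and 8.29 CPM in COL, log2 fold change 1.27, adjusted p = 0.0667, edgeR) and in neurons (0.597 and 0.908 CPM in NS, 1.09 and 1.62 CPM in COL, log2 fold change 0.98, adjusted p = 0.181, edgeR), without passing. In OPCs Tlr4 was too low to be tested, at 0.456 and 0 CPM in NS and 3.55 and 4.18 CPM in COL.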

How the data were processed

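Thalamic nuclei were sequenced in 4 libraries, which the treatment label divides into NS (2) and COL (2). According to the methods and the processing notes, the authors made 10x Genomics 3′ libraries, ran Cell Ranger 1.2.0 against mm10 and deposited raw UMI counts per gene and nuclear barcode, as whole numbers with no normalization. Whether reads from introns or the strand entered the counting is not given in the sources used here. Each library held 68746459 to 77557870 UMIs, and single cell types in single libraries held far fewer.

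Barcodes with more than 50 genes and under 5% mitochondrial UMIs were kept and clustered with Seurat 5.3.0 (5000 variable genes, 15 principal components, resolution 0.8, 31 clusters). Nuclei were scored against simulated doublets, and clusters made up mostly of the 2213 nuclei with the highest scores were set aside as mixed. The other clusters were named from marker lists, and 4 stayed unnamed and were left out. Of these, an oligodendrocyte-scoring cluster of 1573 nuclei and a neuron-scoring cluster of 1422 nuclei were left out because a marker of another list (Enpp6 of the OPCs and Cd247 of the T cells) was among their leading genes and none of their own markers was. UMIs were summed per library and type and tested with edgeR 4.0.16 (quasi-likelihood, TMM, filterByExpr, Benjamini-Hochberg over all genes tested, threshold 0.05), under R 4.3.3. Comparisons between types and their interactions with the group used 20 sums with the library as a block. The scripts were tested on simulated counts. An exact permutation test of 2 against 2 libraries cannot go below p = 0.333 and was not used.

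The alternatives were DESeq2 1.42.0, RLE factors, no filter on low counts, thinning to 2000 UMIs per nucleus, doublet removal, assignment of nuclei by their own markers, a replicate block and leaving out each library. Another 3 were chosen after seeing the data: plain UMI totals, putting back these 2 clusters, and offsets that remove a lowess trend (fraction 0.3) of log2 CPM over gene span. The 9 genes and the gene lists were chosen with earlier results of these data known. The 9 genes are always named, and of the 20 other m6A and m6Am genes those past the threshold, Virma and Ythdc2. Also named were 5 neighbours of Fto, Tlr4, and the 5 genes most correlated with Fto. Gene spans came from the GRCm38 annotation and promoters from RefSeq, whose table held 7 of the 9 genes.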

Additional observations from a re-analysis of the deposited data

Results flagged for a closer look

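The COL and NS differences of 6 genes outside the main list differed between cell types by the interaction test (edgeR, each type against the mean of the other 4). Groups of 2 libraries are too small for a test of outlying libraries. None of the 9 m6A genes was among the 6 genes. Of the 19 tested other m6A and m6Am genes, 1, 0, 1, 3 and 1 were called in neurons, oligodendrocytes, astrocytes, microglia and OPCs. Over all genes the interaction called 9.27%, 6.07%, 5.63%, 8.92% and 3.34% in that order (edgeR). The other calls were of Rpgrip1l, a neighbour of Fto, and of Tlr4. Igf2bp3 stood apart in microglia, where its change exceeded that of the other types by 2.13 on the log2 scale (adjusted p = 2.2e-05), and in OPCs, where it was lower by the same measure (-0.94, adjusted p = 0.042). Both microglial COL values of Igf2bp3 (29.7 and 33.9 CPM) lay above both NS values (18.9 and 27.9 CPM), while in OPCs the values were 36.0 and 67.0 CPM in NS and 7.69 and 19.4 CPM in COL. The microglial difference passed in all 12 alternatives and the OPC difference in 3 of 12. It failed without any 1 of the 4 libraries in OPCs, at -1.07 and -0.64 without NS replicates 1 and 2 and -0.78 and -1.40 without COL replicates 1 and 2.

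The change of Igf2bp2 was larger in neurons than in the other types by the interaction (1.08, adjusted p = 0.019, passing in 7 of 12 alternatives), although its neuronal change on its own was not called by edgeR (3.12, adjusted p = 0.0968) and was by DESeq2 (adjusted p = 1.67e-10), at 1.77 and 1.42 CPM in NS and 16.2 and 8.31 CPM in COL. Hnrnpa2b1, a nuclear RNA-binding protein and candidate reader, had a lower change in astrocytes than in the other types (-0.69, adjusted p = 0.000875) and a higher one in microglia (0.46, adjusted p = 0.0256). Mettl16, a methyltransferase of its own, had a higher change in microglia (0.63, adjusted p = 0.0489, passing in 4 of 12 alternatives), at 40.4 and 54.3 CPM in NS and 65.8 and 66.7 CPM in COL. Rpgrip1l had a lower change in astrocytes (-0.82, adjusted p = 0.0133), and with nuclei assigned by their own markers this was -0.21 (adjusted p = 0.783). Tlr4 had a lower change in microglia than in the other types (-1.89, adjusted p = 0.00306), where the other types held few UMIs of it, such as 3, 4, 21 and 30 in oligodendrocytes. Without the library block, only the interactions of Igf2bp3 and Tlr4 in microglia were still called (edgeR). Leaving out 1 library ended several of the calls of this section. That was so for Igf2bp2 without NS replicate 1 (0.90), NS replicate 2 (1.2) or COL replicate 1 (0.60), and for Hnrnpa2b1 in microglia without NS replicate 2 (0.39) or COL replicate 1 (0.50). It was also so for Mettl16 without NS replicate 1 (0.38) or either COL library (0.70 for both), for Rpgrip1l without NS replicate 1 (-0.64) or COL replicate 2 (-0.69), and for Tlr4 without COL replicate 2 (-1.38). Thinning every nucleus to at most 2000 UMIs also ended the calls of Hnrnpa2b1 in microglia (0.19, adjusted p = 0.571), Mettl16 (0.59, adjusted p = 0.214), Igf2bp2 in neurons (1.01, adjusted p = 0.149), Igf2bp3 in OPCs (-0.92, adjusted p = 0.305) and Tlr4 in microglia (-1.51, adjusted p = 0.108).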

How the results depend on the processing

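Fto was past the threshold in 10 of 13 alternatives in microglia, 9 of 13 in OPCs, 3 of 16 in neurons, 3 of 14 in oligodendrocytes, 0 of 13 in astrocytes and 3 of 12 over all nuclei. Its direction turned only with the span trend removed, to -0.17 in oligodendrocytes, -0.16 in astrocytes and -0.094 in microglia. Leaving out 1 library kept the log2 fold change of Fto within 0.56 to 0.67 in microglia, 0.44 to 0.56 in OPCs, 0.40 to 0.67 in neurons, 0.35 to 0.59 in oligodendrocytes, 0.18 to 0.43 in astrocytes and 0.37 to 0.62 over all nuclei. Between types, plain UMI totals turned Fto in microglia to 0.059 and Ythdf3 in oligodendrocytes to -0.064. Tlr4 in microglia, not called, turned to -0.14 with the span trend removed, to -0.18 with thinning and to -0.21 without COL replicate 1. The cause of these turns was not tested.

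The number of the 9 genes called in COL against NS was 1 with DESeq2 and 1 with no filter in neurons and over all nuclei, 1 with no filter and 1 with thinning in oligodendrocytes, 0 with the span trend removed in microglia and OPCs, and 0 with DESeq2 in OPCs. Leaving out 1 library gave 0 to 3 in oligodendrocytes and 0 to 1 in neurons, astrocytes, microglia, OPCs and over all nuclei. For the neuron interaction it was 1 with marker assignment. Against the other types, astrocytes had 1 with plain UMI totals, 0 with thinning, 1 with marker assignment and 0 to 1 without 1 library, and OPCs had 2 with plain UMI totals and 0 to 1 without 1 library.

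Counts over all genes moved more. In neurons 0 of 23304 genes were called by edgeR (6682 at an unadjusted p under 0.05), against 783 higher and 1686 lower with DESeq2, 1896 and 3271 with no filter, 235 and 719 with the replicate block, 64 and 14 without COL replicate 1, and 1240 and 3045 without COL replicate 2. Elsewhere the count of genes called, over both directions, moved from 3845 to 2081 (without NS replicate 2) and 6645 (without COL replicate 2) in oligodendrocytes. In astrocytes it moved from 2589 to 1452 with DESeq2 and to 1078, 0 and 1491 without NS replicate 1, NS replicate 2 and COL replicate 1. In microglia it moved from 3379 to 1707 with DESeq2 and 1527 without NS replicate 1, and in OPCs from 2501 to 1024 with DESeq2, 1117 with thinning, 488 without NS replicate 1 and 918 without NS replicate 2. Over all nuclei 2416 became 1213 with plain UMI totals, 1290 with the span trend removed, 4533 with DESeq2, 6893 with no filter, 5563 with the replicate block, 3961 with thinning, 1603 without NS replicate 2 and 7012 without COL replicate 2. Plain UMI totals also moved the split of higher and lower calls against the other types, from 5218 and 5509 to 3417 and 7530 in oligodendrocytes and from 4595 and 5748 to 6932 and 3902 in microglia. Without the library block the interactions called 222, 269, 205, 883 and 96 genes in neurons, oligodendrocytes, astrocytes, microglia and OPCs, against 1692, 1108, 1027, 1629 and 610 with it. Replicate numbers 1 and 2 are shared by the groups but tied to nothing in the labels. The correlation of the deviations of same-numbered libraries was -0.02 in neurons and 0.15 in oligodendrocytes. With the replicate block, Fto was 0.60 in microglia (adjusted p = 0.00413), 0.47 in OPCs (adjusted p = 0.0204) and 0.57 in neurons (adjusted p = 0.161), and the block changed the call of none of the 9 genes in the 5 types.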
